A study of Mus musculus with 26 samples.

Results

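Chromatin accessibility was followed in cultured mouse pre-B cells, and the set described here holds the regions that gained a peak when interleukin 7 (IL-7) was absent and still had a peak when the chemokine CXCL12 was present in its place. Peaks of the 6 cultured ATAC-seq lists were merged where they shared at least 1 bp on chromosomes 1 to 9 and 13 to 19, outside 67 to 71 Mb of chromosome 6. A region was taken where both lists without IL-7 and at least 1 of the 2 lists without IL-7 with CXCL12 had a peak and neither list with IL-7 had one. This gave 973 regions of 35235 (2.76%), called the kept regions below. The regions were chosen by the peak calls of these 6 lists, so presence and scores in them are a description with no test.

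ATAC-seq cuts DNA with a transposase where it is free of nucleosomes, so that a pile-up of cuts marks a promoter, an enhancer or another site where proteins bind. IL-7 drives the growth of B cell progenitors through its receptor and STAT5, and its loss lets pre-B cells leave the cell cycle, raise FOXO and IRF4 activity and start to rearrange their light chain genes. CXCL12 is made by marrow stroma and is sensed by CXCR4. The question the cultures address is what CXCR4 signalling adds to that change.

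The 6 cultured libraries fell into 3 groups of 2, labelled by medium: pre-B cells without IL-7 with CXCL12 (IL7- CXCL12+), pre-B cells without IL-7 (IL7-) and pre-B cells with IL-7 (IL7+). Another group of 2 came from flow-sorted small pre-B cells labelled CXCR4-/-, called the sorted cells below, which the rule did not use. No sorted wild-type ATAC-seq library was analysed here. No genotype was given for the cultured cells, and the labels of the ATAC-seq groups name no strain, age, dose or time in culture, nor whether replicates came from separate animals or cultures. The spread between 2 libraries may therefore be technical. The lists carry no gene names, so the labelled cell types were not checked against markers and the regions are given by position in the mouse build mm9.

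On the chromosomes used the lists held 25538 and 21484 peaks for IL7- CXCL12+, 30487 and 25127 for IL7-, 26725 and 22322 for IL7+ and 53024 and 45925 for sorted cells. Replicate 1 had the longer list in all 4 groups. Sequencing depth is unknown, and the length of a list stands beside the results that it moves with. Lists of replicates and of different media were about equally alike. The regions shared by a pair, over those in either, were 0.738 for IL7- CXCL12+, 0.723 for IL7- and 0.740 for IL7+. For the 12 pairs across media the value ran from 0.658 to 0.768.

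As deposited, the lists gave more regions opened than closed without IL-7, but lists of equal length did not. A peak in both IL7- lists and neither IL7+ list was found at 1505 regions (4.27% of all), called opened regions. The reverse pattern, a peak in both IL7+ lists and neither IL7- list, was found at 367 regions (1.04%), called closed regions. With the highest-scoring 21484 peaks taken from every list, there were 672 opened and 675 closed regions. The IL7- lists were the longest of the cultures for each replicate number.

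Of the 1505 opened regions 64.7% had a peak in IL7- CXCL12+ cultures, which are the 973 kept regions (exact 95% binomial interval 62.2% to 67.1%, for counting error only). The shares were 57.8% in IL7- CXCL12+ replicate 1 and 28.3% in replicate 2, whose list was the shorter. Both IL7- CXCL12+ lists held a peak at 323 kept regions (0.917% of all regions). Exactly 1 list did at 650, with 547 in replicate 1 alone and 103 in replicate 2 alone. The remaining 532 opened regions (1.51% of all) had no peak in either IL7- CXCL12+ list and are called lost regions.

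Other classes show how often the IL7- CXCL12+ lists held a peak at all. At regions with peaks in both IL7- lists and 1 IL7+ list, 81.6% had a peak in at least 1 IL7- CXCL12+ list and 41.1% in both. Where both IL7+ lists had a peak as well, these shares were 98.4% and 91.9%. For the 367 closed regions they were 22.9% and 4.36%, the first being 84 regions (0.238% of all regions). With a peak in at least 1 of the 2 lists taken as presence, 973 of 1505 opened and 283 of 367 closed regions had the state of the IL7- lists. The opened share falls to 21.5% with both lists required, and to 28.3% and 57.8% without IL7- CXCL12+ replicate 1 or 2. It is 48.7% and 36.8% without IL7- replicate 1 or 2, and 34.5% and 32.8% with replicate 1 or replicate 2 lists alone. It rises to 75.03% and 67.8% without IL7+ replicate 1 or 2, and to 81.55% with lists of equal length.

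**Figure D1:**
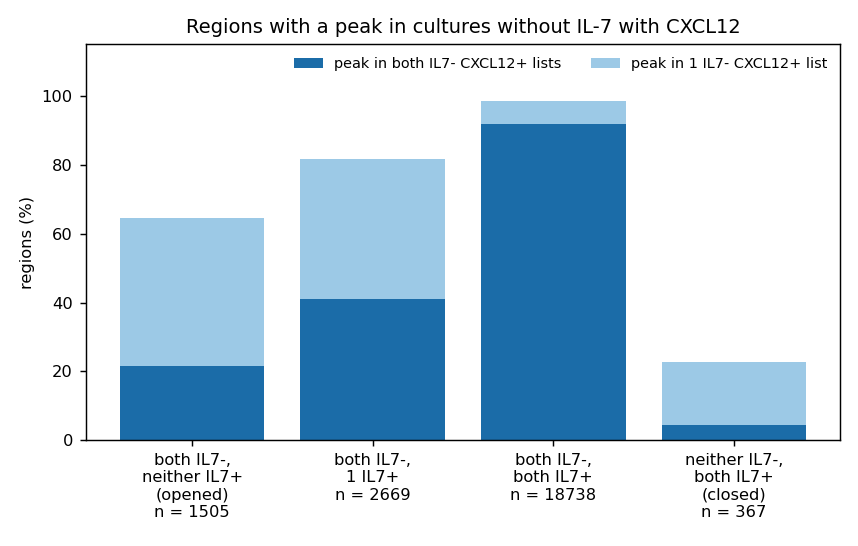
Share of regions (y axis, percent) with a peak in both (dark) or 1 (light) of the IL7- CXCL12+ lists, for 4 patterns of peaks in the IL7- and IL7+ lists (x axis, with the number of regions). The opened regions reach 64.7%, of which 21.5% is in both lists, against 22.9% and 4.36% for the closed regions.

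The peaks of the kept regions were weak in the 4 cultured lists that hold them. A score, the authors' value per peak, was ranked within its own list, from 0 for the weakest to 100 for the strongest peak. The median percentile of the kept regions was 22.3 and 13.5 in the IL7- CXCL12+ lists and 24.3 and 18.0 in the IL7- lists. Peaks above the 50th percentile of their list were found at 22 of 870 kept regions in IL7- CXCL12+ replicate 1 and 0 of 426 in replicate 2. They were found at 25 and 3 of the 973 in IL7- replicates 1 and 2. The lists differ in length, so the percentiles of 2 lists show no change between media.

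These scores lie close to the floor of 5 below which the lists hold no peak. The lower of both IL7- scores of a kept region had a median of 6.43, with a range of 5.01 to 16.0, and was under 6 at 339 regions (34.8%). Just outside the rule stood 2177 regions that had the same peaks but also 1 IL7+ peak, which lay in IL7+ replicate 1 at 1853 and in replicate 2 at 324. The score of that peak was under 6 at 526 of them (24.2%). A region at chr17:5180901-5181389, just inside the rule, scored 6.6 in IL7- CXCL12+ replicate 1 and 10.6 and 5.01 in the IL7- lists. A region at chr1:74837739-74838502 was left out by a single IL7+ peak of score 5.00, beside scores of 6.93 and 9.73 in the IL7- CXCL12+ lists and 12.2 and 9.08 in the IL7- lists. A peak in neither IL7+ list thus means a score under the floor and does not show that the region was shut.

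Membership depends on that floor. With a score of at least 10 asked of every peak, 593 of 22159 regions met the rule (2.68%), but only 46 of the 973 were among them. With the higher-scoring 50% of each list the rule gave 397 of 16131 regions (2.46%), 0 of them among the 973. Both shares of all regions were near the 2.76% of the rule as stated. The share of opened regions kept was 64.9% and 65.4% in these sets. Without IL7+ replicate 1 the rule gave 2840 regions (8.34% of all regions in that setting). Without IL7- replicate 2 it gave 1971 (5.715%), and without IL7- CXCL12+ replicate 1 it gave 428 (1.24%).

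**Figure D2:**
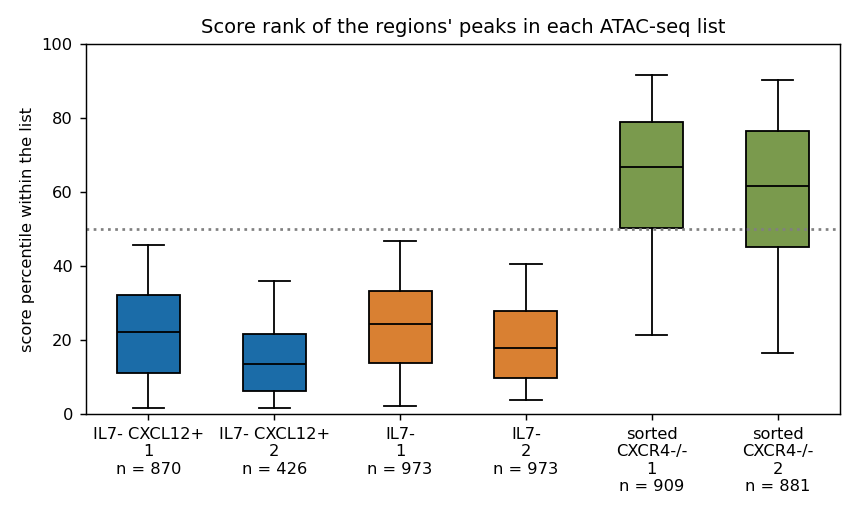
Score percentile within each ATAC-seq list (y axis, 0 weakest and 100 strongest) of the peaks at the kept regions, by library (x axis, with the number of kept regions that have a peak there). Boxes show the median and the middle 50% of regions and whiskers the 5th and 95th percentiles. The medians are between 13.5 and 24.3 in the cultures and 66.9 and 61.7 in the sorted cells. Over all regions, not drawn, the medians in the sorted cells are 69.1 and 65.9.

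Stronger peaks without IL-7 went with presence under CXCL12. Where the lower of both IL7- percentiles was between 25 and 50, 181 of 206 opened regions were kept (87.9%), 102 of them with a peak in both IL7- CXCL12+ lists. Below 25, 792 of 1299 were kept (61.0%), 221 in both lists. No opened region had a lower percentile above 50. The median IL7- percentiles were 29.2 and 24.3 for the 323 regions in both IL7- CXCL12+ lists and 23.1 and 15.3 for the 650 in 1 list. They were 17.1 and 9.89 for the lost regions, below both.

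The sorted small pre-B cells gave a readout that the rule did not use. A peak was present at 909 of the 973 kept regions in sorted library 1 (93.4%) and at 881 in library 2 (90.5%). For the lost regions the shares were 83.6% and 78.0%, for the closed regions 40.1% and 33.8%, and for all 35235 regions 86.3% and 82.3%. The lower of the 2 shares of the kept regions, 90.5%, was above the higher share of each of these 3 classes. It was not above the 2177 regions that differ from them by 1 IL7+ peak, which had 92.9% and 91.0%. The 323 kept regions in both IL7- CXCL12+ lists had 96.6% and 94.4%. The 1097 regions with the same peaks and 1 IL7+ peak had 94.26% and 93.25%. Regions are not replicates and the sorted cells form 1 group of 2 libraries, so this was not given a p-value.

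Both sorted lists held a peak at 868 kept regions (89.2%, exact binomial interval 87.1% to 91.1%). The share was 94.1% for the 323 regions in both IL7- CXCL12+ lists and 86.8% for the 650 in 1 list. It was 88.7% for the 547 found in IL7- CXCL12+ replicate 1 alone and 76.7% for the 103 found in replicate 2 alone. It was 89.9% for the 2177 regions with 1 IL7+ peak, 95.5% for regions in all 6 cultured lists and 81.05% for all regions, so the regions of replicate 2 alone lay below the share over all. A peak in neither sorted list was found at 51 kept regions (5.24%), against 14.9% of the lost, 57.8% of the closed and 12.4% of all regions. That share was 5.97% for the 2177 regions with 1 IL7+ peak and 2.86% for regions in all 6 cultured lists. The 51 kept regions were narrow, with a median width of 370 bp. Of these 51, 10 lay in both IL7- CXCL12+ lists, against 323 of all 973 kept regions.

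**Figure D3:**
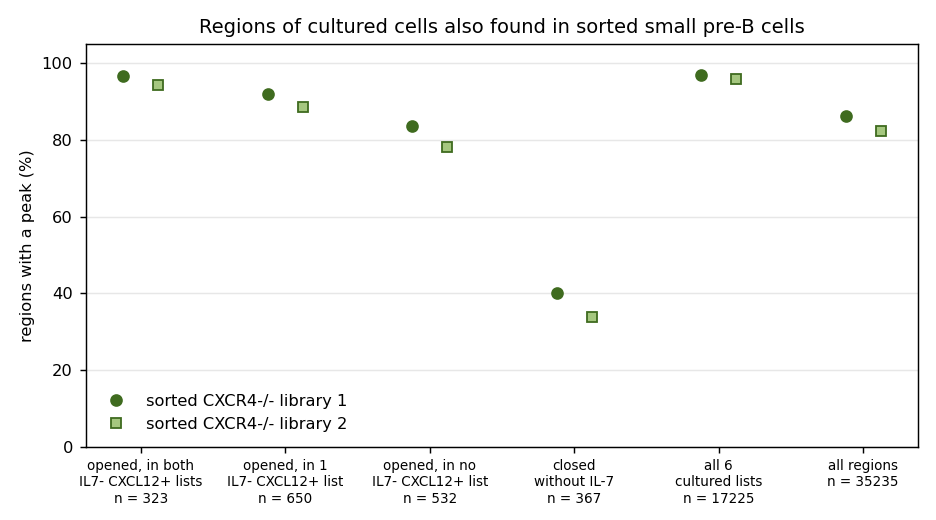
Share of regions (y axis, percent) with a peak in each of the 2 sorted CXCR4-/- libraries (circles for library 1, squares for library 2), by pattern of peaks in the cultures (x axis, with the number of regions). Opened regions in both IL7- CXCL12+ lists reach 96.6% and 94.4%, those in 1 list 91.8% and 88.6%, those in none 83.6% and 78.0% and closed regions 40.1% and 33.8%. Not drawn are the 1097 regions in both IL7-, both IL7- CXCL12+ and 1 IL7+ list, at 94.26% and 93.25%.

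The number of lists that call a region goes with how strong it is, so patterns over 3 lists were set side by side. Among regions with peaks in exactly 3 cultured lists, those kept in both IL7- lists and 1 IL7- CXCL12+ list had peaks in 91.8% and 88.6% in sorted libraries 1 and 2 (n = 650). Regions with both IL7- CXCL12+ lists and 1 IL7- list had 87.2% and 82.7% (n = 156). Regions with 1 list of each medium had 84.3% and 79.0% (n = 874). Regions with both IL7- lists and 1 IL7+ list had 83.9% and 78.3% (n = 492). Regions with both IL7+ lists had 65.2% and 53.2% where the other list was IL7- (n = 551) and 63.2% and 55.9% where it was IL7- CXCL12+ (n = 68). Regions with both IL7- CXCL12+ lists and 1 IL7+ list were few and had 64.7% and 52.9% (n = 34). The kept pattern had the highest share of the 7 in both sorted libraries, but the same pattern with 1 IL7+ list added gave nearly the same shares, 91.6% and 88.8% (n = 1080).

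The peaks in the sorted cells at the kept regions were of middle to high rank, with medians slightly below those of all regions. Their median score was 30.4 in sorted library 1 (range 5.01 to 116.2, n = 909) and 23.6 in library 2 (range 5.06 to 104.6, n = 881), at median percentiles of 66.9 and 61.7. The lost regions had medians of 49.6 and 43.6 and the closed regions 34.4 and 30.1 in the same lists. The 2177 regions with 1 IL7+ peak had 65.5 and 61.1, close to the kept regions, while regions in all 6 cultured lists had 81.8 and 79.1. Over all regions the medians were 69.1 and 65.9. Above the 50th percentile of both sorted lists stood 590 kept regions (60.6%), against 27.6% of the lost regions, 4.90% of the closed regions and 55.1% of all regions. The 323 regions in both IL7- CXCL12+ lists reached 71.8% and the 650 in 1 list 55.1%. The order against all regions turned at higher ranks. Above the 75th percentile of both lists were 228 kept regions (23.4%), against 30.0% of all regions. Above the 90th percentile of both lists were 40 kept regions (4.11%), against 11.9% of all regions.

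Regions were then set side by side within classes of rank in the cultures, which match rank only roughly. Among regions whose lower IL7- percentile was under 25, both sorted lists held a peak at 88.1% of the kept regions (interval 85.7% to 90.3%, n = 792). For the lost regions it was 76.1% (72.2% to 79.8%, n = 507). For regions that also had a peak in both IL7+ lists and in at least 1 IL7- CXCL12+ list it was 79.6% (77.7% to 81.4%, n = 1834). For the 1361 regions with 1 IL7+ list and at least 1 IL7- CXCL12+ list it was 86.5% (84.5% to 88.2%), near that of the kept regions. Where both IL7+ lists but no IL7- CXCL12+ list had a peak it was 67.2% (n = 232). Within this class the lower IL7- percentile still differed, with medians of 10.3 for the kept and 7.30 for the lost regions, 13.5 and 16.4 with 1 and both IL7+ lists beside an IL7- CXCL12+ list, and 11.3 with both IL7+ lists alone. The intervals cover counting error over regions and test nothing between classes.

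Where the lower IL7- percentile was between 25 and 50 the order was not the same. Both sorted lists held a peak at 93.9% of the kept regions (89.4% to 96.9%, n = 181), against 84% of the lost regions, of which there were only 25 (63.9% to 95.5%). The share was 95.5% with 1 IL7+ list (n = 776) and 90.2% with both (n = 4456), each beside at least 1 IL7- CXCL12+ list. In neither class of rank, then, did the kept regions stand clearly apart from those with 1 IL7+ peak.

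In the class under 25 the median percentile in sorted libraries 1 and 2 was 63.7 and 59.5 for the kept regions. It was 48.7 and 43.2 for the lost regions. Beside at least 1 IL7- CXCL12+ list, it was 61.1 and 56.4 with 1 IL7+ list and 57.6 and 53.3 with both. The middle 50% of the kept regions ran from 47.7 to 77.2 in library 1 and from 41.7 to 74.2 in library 2, and overlapped that of each other class.

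**Figure D4:**
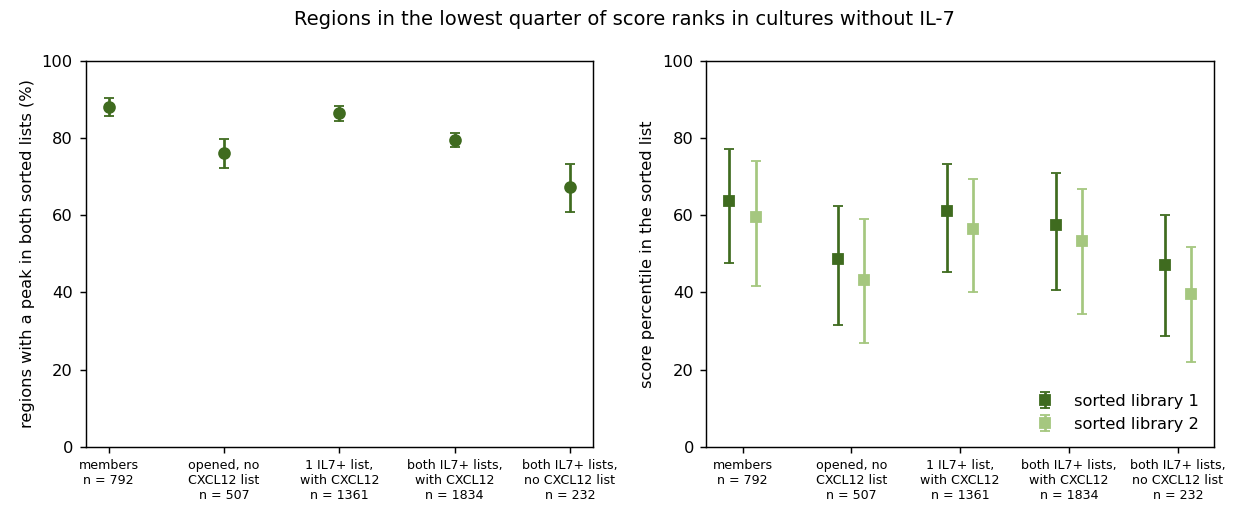
Regions whose lower score percentile in the 2 IL7- lists was under 25, by pattern of peaks (x axis, with the number of regions). Left, the share with a peak in both sorted lists (y axis, percent, bars are exact 95% binomial intervals) is 88.1% for the kept regions (members) against 76.1% for opened regions with no CXCL12 list. Right, the median score percentile in each sorted list (y axis, bars are the middle 50% of regions) is 63.7 and 59.5 for the kept regions.

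The 10 kept regions that ranked highest by their weakest culture call were drawn from the 323 in both IL7- CXCL12+ lists. All 10 had a peak in both sorted lists, as did 94.1% of the 323. The first, chr3:59061802-59062410, stood at percentiles 53.8 and 40.0 in the IL7- CXCL12+ lists and 53.5 and 48.5 in the IL7- lists. In the sorted lists it stood at 83.9 and 79.5. The next, chr1:135252834-135253540, had 49.1 and 39.6 in IL7- CXCL12+ and 56.3 and 44.1 in IL7- lists, with 79.7 and 75.6 in sorted cells. The culture percentiles of all 10 lay between 33.4 and 60.2, near the middle of the lists.

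The third, chr15:41932072-41932615, had 51.4 and 38.5 in IL7- CXCL12+ lists and 49.5 and 45.9 in IL7- lists, and reached 95.8 and 96.5 in the sorted lists. The next, chr16:19241303-19242244, had 49.8 and 38.5 in IL7- CXCL12+ lists and 43.7 and 47.3 in IL7- lists. It was the lowest of the 10 in sorted cells, at 63.8 and 44.5. The others were chr17:87387584-87388408, chr2:29479600-29480710, chr6:21908826-21909567, chr4:63065894-63066908, chr4:129721290-129721950 and chr7:117429575-117430340. Their lowest culture percentile was between 33.4 and 38.2 and their lower sorted percentile between 74.6 and 88.3.

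A few kept regions were among the strongest peaks of the sorted cells. The highest by its lower sorted percentile, chr5:104774068-104774832, scored 115.2 and 104.6 in the sorted lists (percentiles 98.3 and 98.3), and 15.9 and 6.94 in IL7- CXCL12+ and 14.8 and 17.1 in IL7- lists. At chr7:109607037-109607628 the sorted percentiles were 97.8 and 97.9, and the culture percentiles 56.2 and 15.4 for IL7- CXCL12+ and 2.4 and 41.5 for IL7-. There the 2 libraries of each medium stood far apart. The regions chr8:88005642-88006230, chr3:137679833-137680353 and chr5:105407956-105408576 followed, with lower sorted percentiles of 97.2, 97.2 and 96.1. None of these 5 was among the 10 ranked by culture calls.

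The kept regions were narrow. Their median width was 508 bp (middle 50% of regions 446 to 624 bp, range 207 to 1958 bp), against 460 bp for lost, 457 bp for closed and 618 bp for all regions. Regions in all 6 cultured lists measured 887 bp. Merging widens a region with every list that calls it, and single peaks at the kept regions had median widths of 416 and 387 bp in IL7- CXCL12+ lists, 443 and 412 bp in IL7- lists and 535 and 505 bp in sorted lists. In all 35235 regions the single peaks were 577 and 583, 598 and 585 and 629 and 607 bp wide in the same lists.

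The widest kept region, chr2:163441635-163443592, spanned 1958 bp, had a peak in 1 IL7- CXCL12+ list and only in sorted library 1, and ranked at 16.2 in that IL7- CXCL12+ list and 10.3 and 12.0 in the IL7- lists. The next were chr7:120926790-120928335 (1546 bp), chr3:143712706-143713972 (1267 bp), chr6:124758619-124759868 (1250 bp) and chr1:189171513-189172726 (1214 bp). Those 4 had a peak in both sorted lists. The 5 widest and the 10 ranked by culture calls shared 0, but such short lists say little about width and strength. Median width was 551 bp for kept regions with a lower IL7- percentile between 25 and 50 (n = 181). Below 25 it was 501 bp (n = 792).

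The peaks of a kept region lay close together, but merging joins only peaks that overlap, which limits the distance between their centres. Their centres were a median of 33 bp apart between the IL7- replicates (n = 973) and 38.5 bp between the IL7- CXCL12+ replicates (n = 323). Between media they were 37 bp apart for replicate 1 (n = 870) and 31.8 bp for replicate 2 (n = 426). Sorted library 1 was 36.5 bp from IL7- replicate 1 (n = 909) and sorted library 2 33.5 bp (n = 881), within 100 bp at 83.2% and 84.0% of regions. Regions in all 6 cultured lists gave 34.5 bp between IL7- replicates, and 44 and 45 bp from IL7- replicate 1 to the sorted libraries. More than 1 peak of the same list fell in at most 1.59% of the kept regions.

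**Figure D5:**
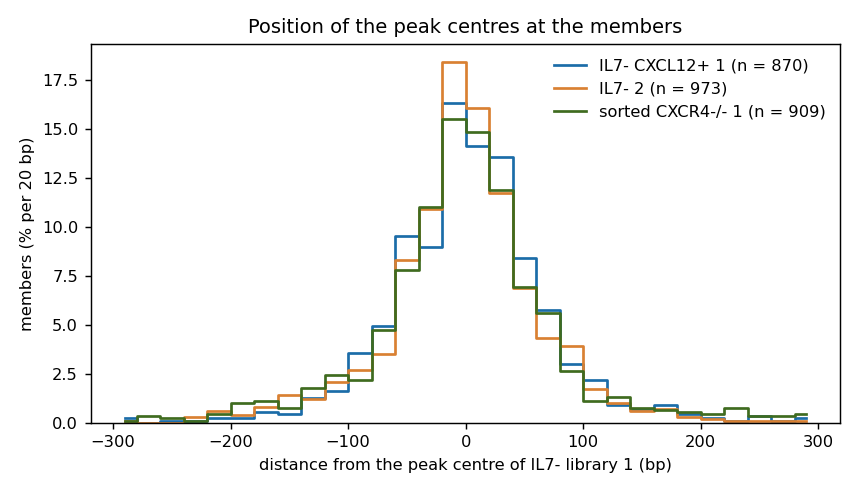
Distance of the peak centre in IL7- CXCL12+ replicate 1, IL7- replicate 2 and sorted library 1 from the peak centre in IL7- replicate 1 (x axis, bp) at the kept regions (y axis, percent of regions per 20 bp, numbers in the legend). All 3 curves peak near 0, and the median absolute distances are 37, 33 and 36.5 bp.

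The kept regions were spread over the 16 chromosomes used like all regions. They made up between 2.20% (chromosome 4, 60 of 2731) and 3.29% (chromosome 6, 73 of 2219) of the regions of a chromosome. The exact binomial interval of all 16 chromosomes held the share over all, 2.76%. The share of opened regions that were kept ran from 59.5% on chromosome 14 (47 of 79) to 76.0% on chromosome 17 (57 of 75).

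The neighbourhoods of the kept regions were much like those of all regions. The nearest region with a peak in all 6 cultured lists was a median of 15509 bp away, against 19735 bp for lost and 17413 bp for all regions. It was within 50 kb for 78.6% of kept, 72.7% of lost and 76.9% of all regions, and 80.5% of the regions in all 6 lists had another of their kind as near. Another kept region lay within 50 kb of 124 of the 973 (12.7%), while a kept region lay within 50 kb of 12.4% of lost, 9.54% of closed and 10.99% of all regions. A closed region lay within 50 kb of 4.01% of kept and 4.40% of all regions. An IL7+ peak stood within 1 kb of 134 kept regions (13.8%), and the smallest gap was 40 bp. The lost regions were close to this, with 69 of 532 (12.97%) and a smallest gap of 29 bp.

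Grouped at gaps of up to 50 kb, the kept regions formed 849 single regions, 59 pairs and 2 groups of 3. The closer group of 3, at chr9:57126057-57174206, spanned 48150 bp and held 4 regions in all, of which 1 was in all 6 cultured lists. Only 1 of its 3 kept regions was in both IL7- CXCL12+ lists, and all 3 had a peak in both sorted lists. The other, at chr14:66814590-66898584, spanned 83995 bp and held 7 regions, of which 3 were in all 6 cultured lists. All 3 of its kept regions were in both IL7- CXCL12+ and both sorted lists, at percentiles 97.2 and 93.3, 68.5 and 56.1, and 40.1 and 22.1 in sorted libraries 1 and 2. Neither group held a lost region.

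The tightest pairs were at chr5:143583211-143584357, chr15:41932072-41934064 and chr8:96879474-96881632, with spans of 1147, 1993 and 2159 bp. Each held no region but its 2 kept ones, and all 6 had a peak in both sorted lists. The pair on chromosome 5 was split between the replicates, with 1 region in IL7- CXCL12+ replicate 1 alone (score 6.75) and the other in replicate 2 alone (score 6.80). The pair on chromosome 15 held the third of the 10 regions ranked by culture calls, and its partner scored 7.99 in IL7- CXCL12+ replicate 1 alone and 36.2 and 32.4 in the sorted lists.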

How the data were processed

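ATAC-seq was measured in 8 mouse libraries of 4 groups of 2, grouped and numbered by their titles. The authors deposited a list of peaks for each library, scored as −log10 of significance (whether a p-value or a q-value is not said). Per the submitters' processing notes, BWA, Picard, bedtools and MACS2 were among the tools and mm9 was the build. Their versions, any shift of reads or removal of duplicates, and read depth are not given in the sources used here. No deposited score is under 5 and the numbering of peaks has gaps, as after a filter.

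Peaks were merged and ranked with Python 3.11.15, numpy 2.4.6 and pandas 2.3.3, exact binomial intervals (95%, counting error only) came from scipy 1.17.1, and figures from matplotlib 3.10.9. Merging was tested on simulated lists. Region coordinates count from 1. The kept regions and all classes were chosen with earlier results of these data known. Named regions are the 10 with the highest value of their lowest percentile over the IL7- and IL7- CXCL12+ lists among those held by all 4, the 5 widest, the 5 densest groups within 50 kb and the 5 with the highest lower percentile in sorted cells. The RNA-seq counts and any annotation or genome sequence were not used here, so a planned comparison of gene expression at the regions was not run. No p-values were computed. Alternatives were another overlap, score minimum or list length, both IL7- CXCL12+ lists required, each library left out and, added after seeing the data, 1 replicate number alone.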

Additional observations from a re-analysis of the deposited data

How the results depend on the processing

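No model was fitted and no paired analysis was run. The labels do not say whether libraries of the same replicate number share an animal or culture. The rule run within each replicate number is given below, but it is not a paired analysis. The rule as stated gave 973 kept regions, a kept share of 64.7% and 89.2% of them in both sorted lists. A percentage right after a number of regions is its share of all regions in that setting, 2.76% for the 973. Joining peaks at 50% of the shorter peak or at gaps of up to 200 bp gave 975 (2.76%) and 938 (2.72%) regions. The kept share and the sorted share then stayed within their intervals. A score of at least 10 gave 593 regions (2.68%), with 92.6% in both sorted lists, against 86.0% of all regions. The higher-scoring 50% of each list gave 397 (2.46%), with 91.7% in both sorted lists, against 84.9%. Lists of equal length gave 548 (1.94%), a kept share of 81.5% and 69.5% in both sorted lists, against 59.5%. Of the 973, 208 were among the 548, and opened and closed regions then numbered 672 and 675. Requiring both IL7- CXCL12+ lists gave 323 (0.917%), a kept share of 21.5% and 94.1% in both sorted lists, against 81.05% of all regions. Leaving out 1 library at a time, the number ran from 428 (1.24%, without IL7- CXCL12+ replicate 1) to 2840 (8.34%, without IL7+ replicate 1). The kept share ran from 28.3% to 75.03%. The share in both sorted lists ran from 84.5%, against 81.7% of all regions, to 90.7%, against 82.5%. Without IL7- replicate 1 it was 85.3%, against 82.8%. In sorted library 1 alone it was 93.4%, against 86.3%. With 1 list per group, an alternative chosen after seeing the data, replicate 1 gave 2139 regions (6.34%) and replicate 2 gave 1739 (6.14%). The kept shares were 34.5% and 32.8%. The shares in the 1 sorted list of the same number were 91.4% and 89.07%, against 87.9% and 86.91% of all regions. The cause of these shifts was not tested beyond what each setting removes. In every setting run, the share in sorted lists was above that of all regions, which include regions called in only 1 list. The regions with 1 IL7+ peak, at 89.9% with the rule as stated, were not compared in the other settings. On chromosome X, outside the rule, the share was below that of all regions (46.2% against 50.7%). Depth is unknown, and the floor of 5 limits what an absent peak can show.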

Other observations

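The same pattern of peaks was met by 143 of 7660 regions on chromosome 10 (1.87%) and 94 of 3566 on chromosome 11 (2.64%). It was met by 53 of 2115 on chromosome 12 (2.51%) and 26 of 1425 on chromosome X (1.825%). The share on the 16 chromosomes used was 2.76%. The share of opened regions kept was 61.9%, 66.2%, 57.6% and 66.7% there. Both sorted lists held a peak at 50.3% of these regions on chromosome 10, 67.02% on 11, 81.1% on 12 and 46.2% on X, against 28.6%, 66.6%, 68.1% and 50.7% of all regions there. Chromosome 10 made up 13.6% to 16.0% of the peaks of each cultured list, against 7.28% and 7.67% of the sorted lists.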
